A study of Mus musculus with 2 samples.

Results

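Vessel tone in the mouse tibialis anterior (TA) muscle was described through 8 genes of the endothelin, nitric oxide and prostacyclin pathways, out of 33696 genes listed in both libraries. They were chosen by name: the peptide Edn1 (ENSMUSG00000021367), its processing enzyme Ece1 (ENSMUSG00000057530), the receptors Ednra (ENSMUSG00000031616) and Ednrb (ENSMUSG00000022122), the endothelial nitric oxide synthase Nos3 (ENSMUSG00000028978), the soluble guanylate cyclase subunits Gucy1a1 (ENSMUSG00000033910) and Gucy1b1 (ENSMUSG00000028005), and the prostacyclin receptor Ptgir (ENSMUSG00000043017). All 8 were detected. Over all kept barcodes Ednrb had the most UMIs (unique molecular identifiers, each standing for 1 captured transcript), with 38202 in the KO-labelled library and 6124 in the WT-labelled library. Ptgir had the fewest, with 775 in the KO-labelled library and 333 in the WT-labelled library.

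The study addressed autocrine IGF-I in resident mesenchymal progenitors of muscle and holds 1 droplet single-cell library labelled KO and 1 labelled WT. Each library pooled 10 TA muscles from 5 male mice, so the animals within it cannot be told apart. Muscles were minced, digested for 1 h at 37 °C with collagenase and dispase, treated to lyse red cells, and sorted for viable cells; both libraries carry batch label 1. The labels give the genotype only as KO or WT, without the altered gene, the allele, a driver or the age, and the word ND in the titles is not spelled out. They also call the cells FAPs (fibro-adipogenic progenitors), yet FAP-like cells by marker genes were 5.98% of kept cells in the KO-labelled library and 15.2% in the WT-labelled library, so most barcodes were other cell types. Igf1, the gene of IGF-I, was not lower in FAP-like cells of the KO-labelled library, which held 396 CPM (counts scaled to a total of 1000000; 95% interval 385 to 407), against 371 (358 to 384) in the WT-labelled library. Over all kept cells it was at 61.6 CPM (60.0 to 63.2) in the KO-labelled library and 124 CPM (120 to 127) in the WT-labelled library, where FAP-like cells were a larger share. The count of Igf1 therefore does not check the label, and the libraries are called by their labels throughout.

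The KO-labelled library held 19531 barcodes and 101570863 UMIs (median 4010 per barcode), against 11360 barcodes and 38014703 UMIs (median 2688.5) in the WT-labelled library; 18027 barcodes of the KO-labelled and 10175 of the WT-labelled library were kept. The labels state about 15000 cells for each. Both libraries shared 61 barcode sequences. A group of 2885 barcodes in the KO-labelled library, against 3 in the WT-labelled library, was led by haemoglobin genes, with a median of 1352 UMIs in the KO-labelled library. The summed level of 19 genes known to respond to tissue dissociation was higher in vessel cells of the KO-labelled library: 26160 CPM against 21392 in the WT-labelled library in pericyte-like cells, 21655 against 18091 in endothelial-like cells, and 19855 against 17430 in smooth muscle-like cells. With 1 library per label no test between genotypes exists and no p-value is given. Levels are CPM, the UMIs of a gene scaled to a total of 1000000 UMIs of the cell type. Differences are log2 ratios of KO-labelled over WT-labelled levels after adding 1 CPM. The ranges in parentheses are 95% intervals that cover counting error alone, not the variation between mice. Ranges of levels and ratios treat each UMI as independent, so they also leave out variation between cells.

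Endothelin is a peptide that endothelial cells release. Its precursor is cut to the active form by endothelin converting enzymes such as Ece1. The receptor encoded by Ednra drives contraction of mural cells, the pericytes and smooth muscle around vessels, while the one encoded by Ednrb in endothelial cells promotes release of nitric oxide and clears endothelin from the blood. Nitric oxide made by Nos3 diffuses to the mural cells and activates soluble guanylate cyclase, a dimer of an alpha and a beta subunit, whose product cyclic GMP relaxes them. Prostacyclin relaxes the same cells through its receptor Ptgir and cyclic AMP.

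The 250 bases upstream of the annotated start are printed for the peptide gene, for both endothelin receptors, and for the pair of cyclase subunits whose profiles over cell types were most alike among the members. They come from a set of promoter windows of RefSeq starts on GRCm38.p6. The set as used here held 7 of the 8 members and had no entry for Nos3, which is named only. Positions are chr13:42301226-42301475 (plus strand) for Edn1, chr8:77724453-77724702 (minus) for Ednra, chr14:103843702-103843951 (minus) for Ednrb, chr3:82145651-82145900 (minus, 1 of 2 annotated starts) for Gucy1a1 and chr3:82074712-82074961 (minus) for Gucy1b1. Each sequence runs 5′ to 3′ on the gene's strand and ends at the last base before the start, and capitals mark motif matches on either strand.
Edn1: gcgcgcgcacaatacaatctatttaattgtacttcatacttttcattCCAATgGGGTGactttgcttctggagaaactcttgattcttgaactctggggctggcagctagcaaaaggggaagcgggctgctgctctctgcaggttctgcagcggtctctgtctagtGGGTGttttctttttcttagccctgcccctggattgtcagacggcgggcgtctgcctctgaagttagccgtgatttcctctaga
Ednra: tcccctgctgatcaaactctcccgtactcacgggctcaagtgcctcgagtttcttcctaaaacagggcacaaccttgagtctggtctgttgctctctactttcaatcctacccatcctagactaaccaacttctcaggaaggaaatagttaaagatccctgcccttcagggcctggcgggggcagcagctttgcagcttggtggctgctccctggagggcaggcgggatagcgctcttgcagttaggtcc
Ednrb: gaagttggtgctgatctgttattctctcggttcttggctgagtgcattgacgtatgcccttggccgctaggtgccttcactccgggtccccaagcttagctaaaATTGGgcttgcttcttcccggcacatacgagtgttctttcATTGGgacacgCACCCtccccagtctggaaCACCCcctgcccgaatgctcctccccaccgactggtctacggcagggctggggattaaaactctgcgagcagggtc
Gucy1a1: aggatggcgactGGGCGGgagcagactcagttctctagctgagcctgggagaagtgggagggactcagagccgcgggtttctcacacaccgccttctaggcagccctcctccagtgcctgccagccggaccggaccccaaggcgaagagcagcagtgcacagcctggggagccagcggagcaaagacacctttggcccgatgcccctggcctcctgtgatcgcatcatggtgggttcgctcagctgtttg
Gucy1b1: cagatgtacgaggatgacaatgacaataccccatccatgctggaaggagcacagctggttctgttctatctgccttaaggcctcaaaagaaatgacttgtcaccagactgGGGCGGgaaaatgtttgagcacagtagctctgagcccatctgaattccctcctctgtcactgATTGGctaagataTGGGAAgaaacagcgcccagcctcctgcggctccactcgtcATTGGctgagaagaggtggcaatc

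Of 8 motifs searched on both strands, the Ednra window held none. The Ednrb window held the CCAAT box ATTGG 146 and 106 bases before the start and the KLF site CACCC 95 and 76 bases before it. In the Edn1 window the CCAAT box lay 203 bases and the KLF site 197 and 84 bases before the start. The Gucy1a1 window held the GC box GGGCGG 238 bases before the start. The Gucy1b1 window held that box at 140 bases, the CCAAT box at 78 and 24 bases and the RBPJ site TGGGAA at 65 bases. No matches overlapped each other in these windows. Among 32851 annotated promoter windows of the same length, 33.8% held the CCAAT box, 52.0% the KLF site, 32.7% the GC box and 21.6% the RBPJ site. The AP-1 site TGANTCA (6.75% of windows), the GATA site AGATAA (9.99%), the TATA box TATAAA (12.4%) and the CArG box (1.47%), the site of serum response factor, were in none of the printed windows. The Gucy1a1 and Gucy1b1 windows had 70689 bases between them on chromosome 3. These matches describe letters only.

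Edn1 transcripts were found mainly in arterial endothelium. Arterial endothelial-like cells, named from Sema3g, Gja5, Gja4, Bmx and 5 other markers, held 393 CPM of Edn1 (381 to 405) in the KO-labelled library and 396 (376 to 417) in the WT-labelled library. Venous cells held 113 (102 to 124) in the KO-labelled library and 164 (142 to 188) in the WT-labelled library. Arteriolar-side cells, a class marked by Rbp7 and Btnl9, held 69.4 (59.4 to 80.7) when KO-labelled and 37.0 (15.98 to 72.9) when WT-labelled, and capillary cells 12.7 (11.03 to 14.5) when KO-labelled and 10.5 (7.02 to 15.05) when WT-labelled. Arteries thus led in both libraries, veins came second and capillaries last. The arterial level was 31.0-fold (27.0 to 35.7) the capillary level in the KO-labelled library and 37.8-fold (26.2 to 56.6) in the WT-labelled library. With clusters cut at resolution 2 the capillary level of the KO-labelled library was 19.3 CPM, in place of 12.7. The arterial level was 3.49-fold (3.15 to 3.88) the venous level in the KO-labelled library and 2.41-fold (2.08 to 2.81) in the WT-labelled library. Arterial cells were 8.35% of kept cells in the KO-labelled library and held 72.7% of its Edn1 UMIs; in the WT-labelled library they were 10.2% of cells and held 73.0%. Mural cells had almost none: 7 UMIs among 1120 pericyte-like cells and 5 among 793 smooth muscle-like cells of the KO-labelled library, against 0 among 612 and 1 among 746 in the WT-labelled library. The 0 of 612 allows a level of up to 1.91 CPM.

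Between the libraries Edn1 did not differ in arterial cells beyond counting error (log2 ratio -0.01, interval -0.10 to 0.08). Thinned to 2000 UMIs per cell, so that depth is equal, 30.3% (27.9 to 32.8) of arterial cells in the KO-labelled library and 30.2% (27.1 to 33.5) in the WT-labelled library had an Edn1 UMI; before thinning the shares were 44.9% in the KO-labelled library and 37.3% in the WT-labelled library. The level was lower in venous cells of the KO-labelled library (log2 ratio -0.54, -0.79 to -0.29). Few venous cells carried it. Of 351 thinned KO-labelled venous cells, 10 had Edn1 with Nos3 and 36 had Edn1 without Nos3. Of 230 WT-labelled ones, 11 and 30 did. Over all endothelial-like cells Edn1 was at 137 CPM (134 to 141) in the KO-labelled library and 191 (182 to 200) in the WT-labelled library. This was a log2 ratio of -0.47 (-0.55 to -0.40). Arterial cells were 20.7% of endothelial-like cells in the KO-labelled library and 30.5% in the WT-labelled library, and capillary cells were 47.9% in the KO-labelled library and 37.3% in the WT-labelled library. Given equal weight, the sub-clusters of endothelial-like cells gave a log2 ratio of 0.15.

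**Figure D1:**
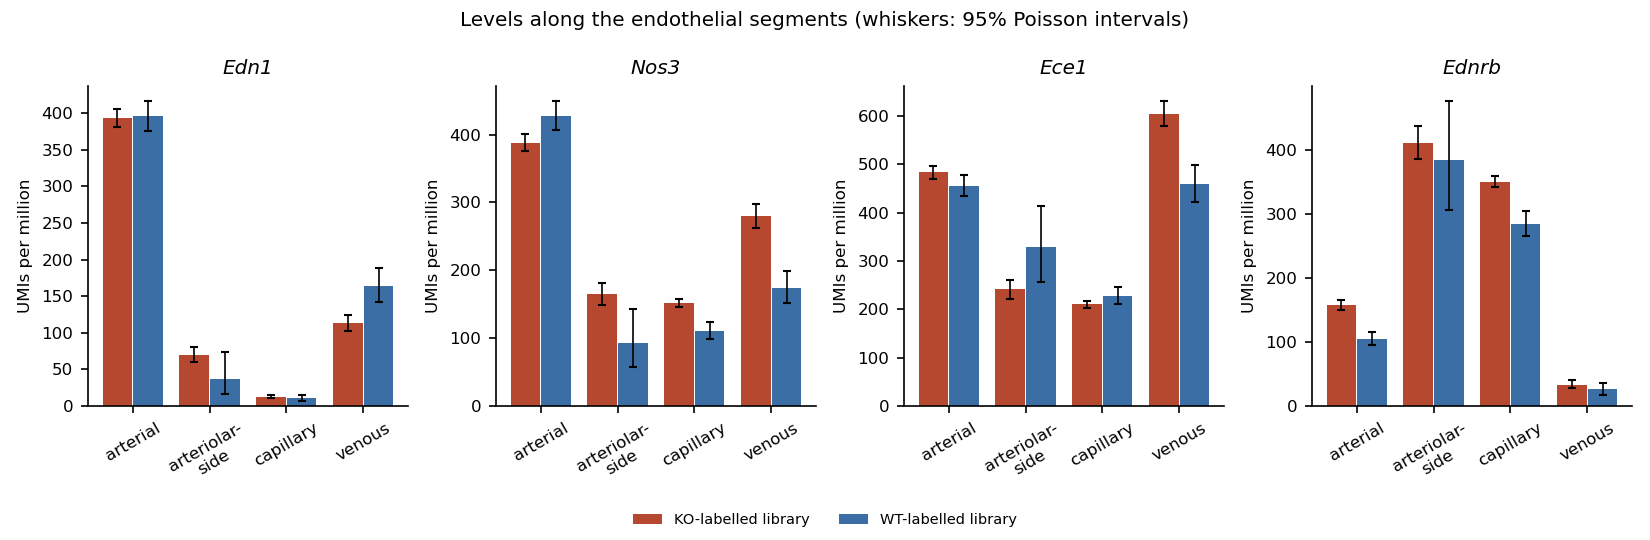
Levels of Edn1, Nos3, Ece1 and Ednrb (CPM, vertical axes from 0) in 4 endothelial segments of the KO-labelled and the WT-labelled library; whiskers are 95% Poisson intervals. Edn1 peaked in arterial cells, at 393 CPM KO-labelled and 396 WT-labelled, whereas Ednrb was at 351 KO-labelled and 284 WT-labelled in capillary cells and at 33.1 KO-labelled and 25.5 WT-labelled in venous cells.

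Ece1, the membrane protease that completes endothelin, was the most widespread member. Its venous level was 604 (579 to 631) in the KO-labelled library and 459 (422 to 499) in the WT-labelled library, and its arterial level 483 (470 to 497) when KO-labelled and 455 (434 to 477) when WT-labelled. Capillary cells held 210 (204 to 217) in the KO-labelled library and 228 (211 to 247) in the WT-labelled library. Venous and arterial levels differed beyond counting error in the KO-labelled library, whereas their intervals overlapped in the WT-labelled library. Outside the endothelium, FAP-like cells held 185 CPM (177 to 193) in the KO-labelled library and 168 (159 to 177) in the WT-labelled library, and pericyte-like cells 140 (130 to 150) when KO-labelled and 97.9 (83.1 to 115) when WT-labelled. Smooth muscle-like cells had 132 (123 to 141) in the KO-labelled library and 104 (92.1 to 116) in the WT-labelled library. Levels were lower still in tenocyte-like cells, at 75.8 when KO-labelled and 64.7 when WT-labelled. The log2 ratio was 0.40 (0.26 to 0.53) in venous, 0.51 (0.26 to 0.77) in pericyte-like and 0.34 (0.15 to 0.55) in smooth muscle-like cells, and -0.12 (-0.24 to 0.01) in capillary cells. Over the 2 pericyte sub-clusters with at least 30 cells in each library it was 0.13 (-0.20 to 0.46), an interval that includes 0. Of the 6 smooth muscle sub-clusters, 2 had an interval above 0 and 4 one that includes 0.

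The endothelin receptors differed in the cells that held them. Ednra was a mural gene: smooth muscle-like cells held 295 CPM (282 to 309) in the KO-labelled library and 341 (319 to 363) in the WT-labelled library, and pericyte-like cells 167 (157 to 178) when KO-labelled and 290 (264 to 318) when WT-labelled. FAP-like cells had 16.2 (14.02 to 18.7) in the KO-labelled library and 15.4 (12.9 to 18.2) in the WT-labelled library. Endothelial-like cells had 29 UMIs in 7256 cells of the KO-labelled library and 13 in 3408 cells of the WT-labelled library, which was 0.783 CPM when KO-labelled and 1.38 CPM when WT-labelled. Thinned to 2000 UMIs, 24.8% of pericyte-like cells of the KO-labelled library and 40.3% of those of the WT-labelled library had an Ednra UMI, against 0.195% of KO-labelled and 0.299% of WT-labelled endothelial-like cells; before thinning the pericyte shares were 43.7% when KO-labelled and 47.4% when WT-labelled. Free RNA in droplets and remaining doublets can give stray UMIs, and their part in those endothelial shares was not tested. Median depth was 5065.5 UMIs in pericyte-like and 4409 in endothelial-like cells of the KO-labelled library, and 2332 in pericyte-like and 2270.5 in endothelial-like cells of the WT-labelled library.

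Ednrb was highest in pericyte-like cells, at 3051 CPM (3007 to 3096) in the KO-labelled library and 1646 (1583 to 1711) in the WT-labelled library. Smooth muscle-like cells held 486 (469 to 504) in the KO-labelled library and 223 (206 to 241) in the WT-labelled library, above the arteriolar-side level in the KO-labelled library and below it in the WT-labelled library. Among endothelial segments, arteriolar-side cells had 411 (386 to 437) when KO-labelled and 384 (306 to 476) when WT-labelled, and capillary cells 351 (342 to 360) when KO-labelled and 284 (265 to 305) when WT-labelled. Arterial cells had 158 (150 to 165) when KO-labelled and 105 (94.4 to 115) when WT-labelled, and venous cells 33.1 (27.4 to 39.7) when KO-labelled and 25.5 (17.4 to 36.3) when WT-labelled. Within the endothelium Ednrb was thus lowest in veins and, unlike Edn1, higher in capillaries than in arteries. The capillary level was 2.22-fold (2.10 to 2.35) the arterial one in the KO-labelled library and 2.72-fold (2.41 to 3.08) in the WT-labelled library, and against the venous one it was 10.6-fold (8.81 to 12.8) in the KO-labelled library and 11.1-fold (7.78 to 16.5) in the WT-labelled library. The venous level of the KO-labelled library was 66.0 CPM with doublets kept, 63.4 CPM at resolution 2 and 68.4 CPM with pathway genes in the clustering, in place of 33.1. Macrophage-like cells (126 in the KO-labelled library, 89.4 in the WT-labelled library) and glial-like cells (104 in the KO-labelled library, 119 in the WT-labelled library) had lower levels. Pericyte-like cells were 6.21% of kept cells of the KO-labelled library and held 47.0% of its Ednrb UMIs; in the WT-labelled library they were 6.01% and held 42.3%.

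The share of Ednrb against Ednra therefore separated the mural types. Pericyte-like cells held 0.05 UMIs of Ednra for each of Ednrb in the KO-labelled library and 0.18 in the WT-labelled library. In smooth muscle-like cells this ratio was 0.61 (0.57 to 0.64) in the KO-labelled library and 1.53 (1.38 to 1.69) in the WT-labelled library. Transcript ends are captured with gene-specific efficiency, so this ratio is comparable between cell types but does not rank the receptors by transcript number. In single cells thinned to 2000 UMIs, 22.3% of pericyte-like cells of the KO-labelled library had both receptors, 69.7% Ednrb without Ednra and 2.48% Ednra without Ednrb, against 33.4%, 48.5% and 6.90% in the WT-labelled library. Smooth muscle-like cells were mixed: 9.48% had both, 18.4% Ednrb without Ednra, 27.6% Ednra without Ednrb and 44.6% neither in the KO-labelled library, against 7.79%, 11.9%, 34.1% and 46.2% in the WT-labelled library. A single thinned cell without a UMI is not thereby a cell without the transcript.

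**Figure D2:**
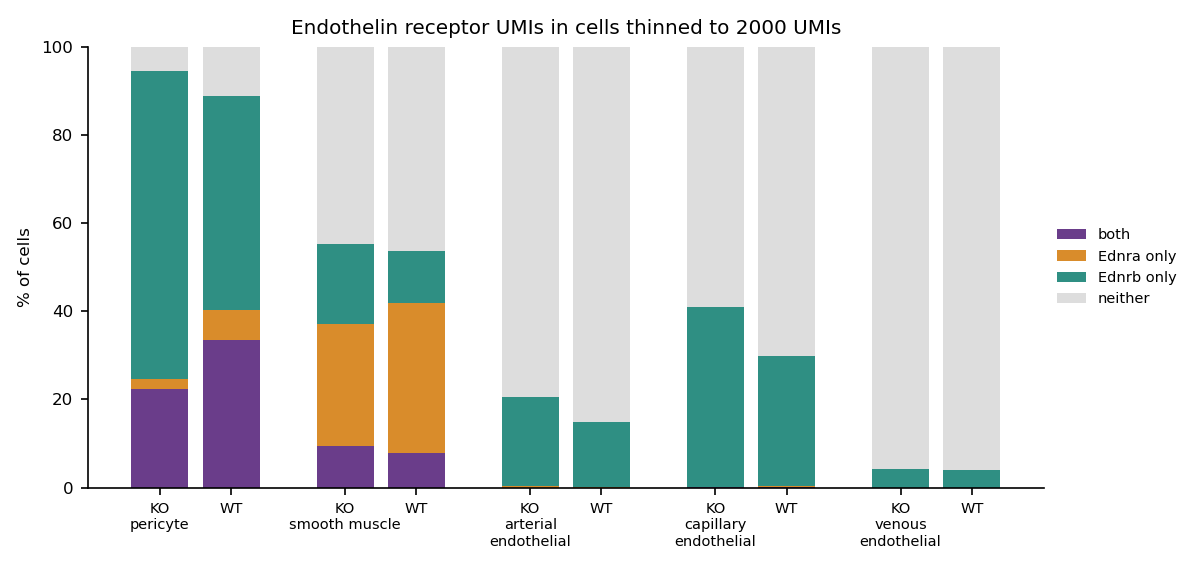
Share of cells (%, vertical axis from 0 to 100) with UMIs of both endothelin receptors, of Ednra only, of Ednrb only or of neither, after thinning each cell to 2000 UMIs, by cell type, KO-labelled left of WT-labelled. Endothelial bars hold almost no Ednra, pericyte bars are mostly Ednrb, and smooth muscle bars hold both receptors.

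Summed over each mural type, Ednrb was higher in the KO-labelled library. Over the 2 pericyte sub-clusters with at least 30 cells in each library it was not (log2 ratio -0.12). Of the members that passed a minimum of 20 CPM in 1 library and 100 UMIs in all, 1 of 6 in smooth muscle-like cells was at least 2-fold higher in the KO-labelled library, namely Ednrb (log2 ratio 1.12, 1.00 to 1.25); 0.528% of the genes tested there were. None of the 6 that passed in pericyte-like cells and none of the 4 in endothelial-like cells was 2-fold apart, against 3.24% and 1.63% of genes tested. In pericyte-like cells the log2 ratio of Ednrb was 0.89 (0.83 to 0.95), in arterial cells 0.59 (0.43 to 0.76), in capillary cells 0.30 (0.19 to 0.41) and in venous cells 0.36 (-0.21 to 0.99). Capillary cells of the libraries lay in different sub-clusters: one led by Medag and Hopx held 944 KO-labelled and 5 WT-labelled cells, and one led by Gm17749 and Irf8 held 1138 KO-labelled and 97 WT-labelled cells. In the one led by haemoglobin genes, with 498 KO-labelled and 606 WT-labelled cells, Ednrb was lower in the KO-labelled library (-0.38, -0.57 to -0.18). Over the 16 endothelial sub-clusters with at least 30 cells in each library, Ednrb had an interval above 0 in 9, below 0 in 1 and including 0 in 6. In glial-like cells it was -0.20 (-0.44 to 0.05), and in macrophage-like cells 0.49 (0.18 to 0.80). Thinned shares with an Ednrb UMI were also higher in the KO-labelled library in the following types: 92.0% of pericyte-like cells in the KO-labelled library and 82.0% in the WT-labelled library, 20.3% of KO-labelled and 14.6% of WT-labelled arterial cells, 27.8% of KO-labelled and 19.7% of WT-labelled smooth muscle-like cells, and 41.0% of KO-labelled and 29.7% of WT-labelled capillary cells. Thinning left out cells under 2000 UMIs. It kept 3267 of 3472 capillary cells in the KO-labelled library but 632 of 1272 in the WT-labelled library. In arterial cells the Ednrb level depended on which cells were called arterial, with 55.9 CPM in the WT-labelled library when each library was clustered alone.

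Low levels of Ednrb outside the vessels also differed between the libraries. Tenocyte-like cells had 24.9 CPM in the KO-labelled library and 5.30 in the WT-labelled library (log2 ratio 2.04, 1.53 to 3.01, where 3.24% of genes tested were at least 2-fold higher), but 45.2% of the 126 UMIs in the KO-labelled library came from 1 cell. Thinned to 2000 UMIs, 1.84% of tenocyte-like and 2.16% of neutrophil-like cells of the KO-labelled library had an Ednrb UMI, against 0.299% of tenocyte-like and 0% of the 38 neutrophil-like cells in the WT-labelled library. The haemoglobin-led barcodes of the KO-labelled library held 369 CPM of Ednrb and 3.09 of them for each UMI of Gucy1a1. That ratio was 3.30 in pericyte-like, 0.47 in smooth muscle-like and 62.3 in capillary cells of the same library. In the WT-labelled library it was 1.25 in pericyte-like, 0.17 in smooth muscle-like and 49.2 in capillary cells. The part of free RNA in the low levels was not tested.

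Ednrb levels in pericyte-like cells differed between sub-clusters. Clustering used none of the 8 members. A sub-cluster led by Pde7b, Pla1a and Lpar1 held 376 cells of the KO-labelled library and none of the WT-labelled library, and one led by Ccl2 and Hspa1a held 337 of the KO-labelled library and 3 of the WT-labelled library. They made up 33.6% and 30.1% of pericyte-like cells of the KO-labelled library, with Ednrb at 3684 (3593 to 3778) and 3596 (3519 to 3675) CPM. A small sub-cluster of 54 KO-labelled and 8 WT-labelled cells had 3171 CPM (2994 to 3356) in its KO-labelled and 870 (563 to 1285) in its WT-labelled cells. The 3 WT-labelled cells of the Ccl2 sub-cluster had 2508 (1783 to 3428). In KO-labelled cells the dissociation genes summed to 8833 CPM in the Pde7b sub-cluster and 42459 in the Ccl2 sub-cluster. Their part in the Ednrb level was not tested.

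In the other 2 large pericyte sub-clusters both libraries were well represented, and the libraries were closer. The one led by Plxdc1 held 209 cells of the KO-labelled library and 299 of the WT-labelled library, with Ednrb at 1385 (1300 to 1473) in KO-labelled and 1104 (1023 to 1189) in WT-labelled cells and dissociation genes at 4171 in KO-labelled and 3016 in WT-labelled cells. The one led by Gabrr1 held 144 KO-labelled and 302 WT-labelled cells, with Ednrb at 1649 (1562 to 1739) in KO-labelled and 2034 (1942 to 2129) in WT-labelled cells and dissociation genes at 39469 in KO-labelled and 34472 in WT-labelled cells. Ednrb was thus higher in the KO-labelled cells of one and in the WT-labelled cells of the other. Summed over both sub-clusters, Ednrb was at 1525 CPM in the KO-labelled library and 1652 in the WT-labelled library, a log2 ratio of -0.12 (-0.20 to -0.03), and equal weight for each sub-cluster gave -0.049. The higher level over all pericyte-like cells of the KO-labelled library thus lay in sub-clusters that the WT-labelled library almost lacked, and the genotype cannot be told apart from the library. Endothelial markers summed to 930 CPM in pericyte-like cells of the KO-labelled library and 560 in those of the WT-labelled library (8 of 10 when KO-labelled and 7 of 10 when WT-labelled at 5 or more CPM, none at 0), against 12021 in KO-labelled and 11588 in WT-labelled capillary cells.

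**Figure D3:**
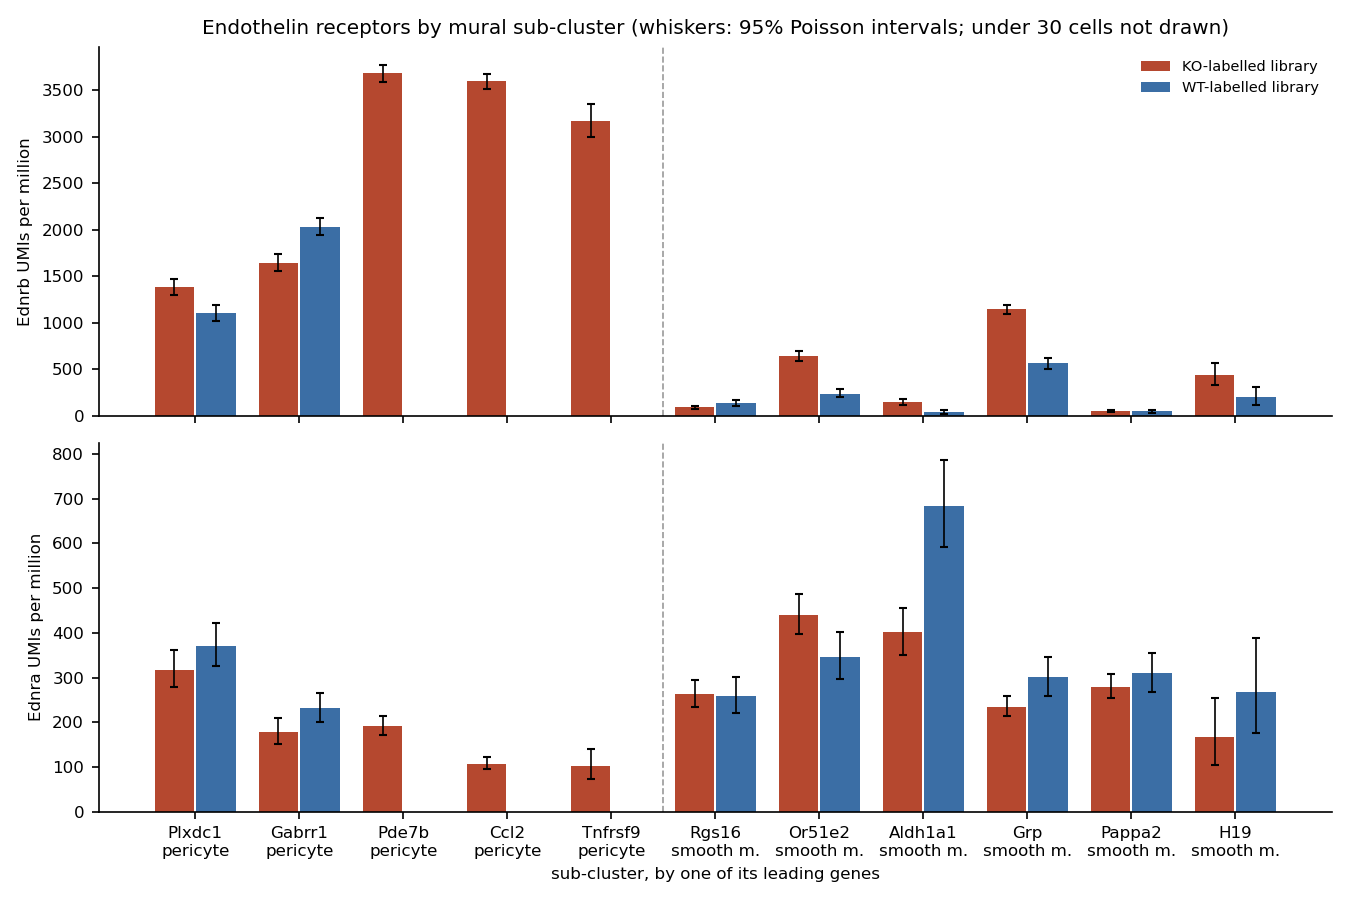
Ednrb (upper panel) and Ednra (lower panel) in CPM by pericyte (left of the dashed line) and smooth muscle sub-cluster, each named by 1 of its leading genes, KO-labelled left of WT-labelled; whiskers are 95% Poisson intervals and libraries with under 30 cells are not drawn. The Pde7b and Ccl2 pericyte sub-clusters, with no WT-labelled bar, reach 3684 and 3596 CPM for Ednrb, above both bars of the Plxdc1 and Gabrr1 sub-clusters.

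Smooth muscle-like cells gave a different picture, since each of the 6 sub-clusters held at least 64 cells of each library. The highest level was in the sub-cluster led by Grp, at 1145 CPM (1096 to 1195) in the KO-labelled library and 564 (506 to 626) in the WT-labelled library, and the lowest in the one led by Pappa2, at 47.2 (36.8 to 59.5) when KO-labelled and 47.4 (32.0 to 67.6) when WT-labelled. Ednrb was higher in the KO-labelled library in 4 sub-clusters, including those led by Or51e2 (645 in KO-labelled and 238 in WT-labelled cells) and Aldh1a1 (148 in KO-labelled and 37.8 in WT-labelled cells). It was lower in the one led by Rgs16 and Tnc, at 91.5 (75.2 to 110) against 138 (111 to 171) in the WT-labelled library. That last sub-cluster had the highest dissociation genes, at 33096 CPM in the KO-labelled library and 32089 in the WT-labelled library. Dissociation genes were at 5150 in KO-labelled and 3070 in WT-labelled cells of the Or51e2 sub-cluster, and at 5876 in KO-labelled and 6050 in WT-labelled cells of the Aldh1a1 sub-cluster. Their part in the Ednrb ratios was not tested.

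Summed over each mural type, Ednra was lower in the KO-labelled library. The log2 ratio was -0.79 (-0.96 to -0.63) in pericyte-like and -0.21 (-0.32 to -0.09) in smooth muscle-like cells. Over the 2 pericyte sub-clusters well represented in both libraries it was -0.24 (-0.44 to -0.04), at 244 CPM in KO-labelled and 289 in WT-labelled cells. The sub-clusters led by Pde7b and Ccl2 had 192 and 108 CPM in the KO-labelled library, so the sub-clusters with the most Ednrb were not those with the most Ednra. Among smooth muscle sub-clusters Ednra was highest in the WT-labelled library in the one led by Aldh1a1, at 684 CPM against 401 in the KO-labelled library (log2 ratio -0.77). Of the 6 smooth muscle sub-clusters, 2 had an Ednra interval below 0, 1 an interval above 0 (the one led by Or51e2, log2 ratio 0.34) and 3 an interval that includes 0. A gene on the opposite strand overlaps Ednra, 4933431K23Rik, with 158 UMIs in the KO-labelled library and 78 in the WT-labelled library; the strand setting of the authors' counting was not given in the sources used here.

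Nos3, the enzyme that makes nitric oxide in endothelium, was found along every endothelial segment and hardly elsewhere. Arterial cells held 388 CPM (376 to 400) in the KO-labelled library and 428 (407 to 449) in the WT-labelled library, and venous cells 280 (262 to 298) when KO-labelled and 174 (151 to 199) when WT-labelled. Arteriolar-side cells had 164 (149 to 181) when KO-labelled and 92.5 (56.5 to 143) when WT-labelled, and capillary cells 152 (146 to 158) when KO-labelled and 110 (98.2 to 123) when WT-labelled. The arterial level was 2.56-fold the capillary level in the KO-labelled library and 3.88-fold in the WT-labelled library, a far flatter profile than that of Edn1. Pericyte-like cells had 17 UMIs in the KO-labelled library and 5 in the WT-labelled library. The log2 ratio between libraries was 0.46 (0.29 to 0.64) in capillary cells, 0.68 (0.47 to 0.91) in venous cells and -0.14 (-0.22 to -0.06) in arterial cells. The capillary ratio rests on unlike sub-clusters: among others, it was 0.61 (0.16 to 1.097) in the one led by Gm17749, -0.11 (-0.42 to 0.20) in the haemoglobin-led one and -0.50 (-1.24 to 0.20) in the one led by Gm8797 and Isg15, which held 133 KO-labelled and 269 WT-labelled cells. Over the 16 endothelial sub-clusters with at least 30 cells in each library, Nos3 had an interval above 0 in 6, below 0 in 1 and including 0 in 9. Over all endothelial-like cells the Nos3 log2 ratio was -0.10 (-0.16 to -0.03), at 230 CPM in KO-labelled and 247 in WT-labelled cells. After thinning, 38.2% (33.1 to 43.5) of KO-labelled and 26.1% (20.5 to 32.3) of WT-labelled venous cells had a Nos3 UMI. In capillary cells the shares were 23.3% (21.8 to 24.8) when KO-labelled and 19.6% (16.6 to 22.9) when WT-labelled, so that their intervals overlapped. These capillary shares cover the 3267 KO-labelled and 632 WT-labelled cells that thinning kept. Gm15587, on the opposite strand, overlaps Nos3 and had 234 UMIs in the KO-labelled library and 71 in the WT-labelled library.

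The number of Edn1 UMIs for each UMI of Nos3 was compared between segments. Arterial cells held 1.01 UMIs of Edn1 for each of Nos3 (0.97 to 1.06) in the KO-labelled library and 0.93 (0.86 to 0.99) in the WT-labelled library, and capillary cells 0.08 (0.07 to 0.10) when KO-labelled and 0.10 (0.06 to 0.14) when WT-labelled. In venous cells the ratio was 0.40 (0.36 to 0.45) in the KO-labelled library and 0.94 (0.77 to 1.15) in the WT-labelled library. Of these 3 segments the intervals of the libraries were furthest apart in venous cells, with Edn1 lower and Nos3 higher in the KO-labelled library. Venous cells numbered 377 in the KO-labelled library and 288 in the WT-labelled library and formed a single sub-cluster.

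The soluble guanylate cyclase subunits were the nearest to a mural pair. Gucy1a1, the alpha subunit, was at 1035 CPM (1010 to 1061) in smooth muscle-like cells of the KO-labelled library and 1293 (1251 to 1336) in those of the WT-labelled library, and at 924 (900 to 949) in KO-labelled and 1317 (1261 to 1375) in WT-labelled pericyte-like cells. Gucy1b1, the beta subunit, was at 499 (481 to 517) in KO-labelled and 501 (475 to 528) in WT-labelled smooth muscle-like cells, and at 657 (636 to 678) in KO-labelled and 993 (945 to 1044) in WT-labelled pericyte-like cells. Both were thus mural genes in both libraries. Outside mural cells and the haemoglobin-led barcodes the next level of Gucy1a1 was 32.2 in perineurial-like cells of the KO-labelled library, against 72.8 in the WT-labelled library. FAP-like cells had 7.07 of Gucy1a1 when KO-labelled and 8.39 when WT-labelled. The alpha-to-beta ratio was 1.41 (1.35 to 1.47) in pericyte-like and 2.08 (1.99 to 2.17) in smooth muscle-like cells of the KO-labelled library, and 1.33 (1.24 to 1.42) in pericyte-like and 2.58 (2.43 to 2.75) in smooth muscle-like cells of the WT-labelled library, so the smooth muscle-like cells of both libraries carried relatively more of the alpha subunit.

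Both subunits were lower in pericyte-like cells of the KO-labelled library. The log2 ratio was -0.51 (-0.59 to -0.44) for Gucy1a1 and -0.60 (-0.68 to -0.51) for Gucy1b1. In smooth muscle-like cells it was -0.32 (-0.38 to -0.26) for Gucy1a1, whereas Gucy1b1 gave -0.01 (-0.10 to 0.09). After thinning, 56.2% of pericyte-like cells of the KO-labelled library and 74.3% of those of the WT-labelled library held UMIs of both subunits, and 46.1% of KO-labelled and 53.8% of WT-labelled smooth muscle-like cells did. Over the 2 pericyte sub-clusters well represented in both libraries, the log2 ratio was -0.09 (-0.18 to 0.004) for Gucy1a1, at 1237 CPM in KO-labelled and 1314 in WT-labelled cells, and -0.18 (-0.29 to -0.07) for Gucy1b1, at 876 in KO-labelled and 991 in WT-labelled cells. The sub-cluster led by Pde7b had 994 of Gucy1a1 and 609 of Gucy1b1 CPM in the KO-labelled library, and the one led by Ccl2 had 690 and 527. The sub-clusters with the highest Ednrb thus had cyclase levels below those of the Plxdc1 and Gabrr1 sub-clusters.

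Ptgir, the receptor for prostacyclin, was the least abundant member and was not restricted to vessels. Its level was 23.2 CPM (20.5 to 26.1) in FAP-like cells of the KO-labelled library and 15.99 (13.5 to 18.9) in those of the WT-labelled library. Pericyte-like cells had 18.4 (15.1 to 22.2) when KO-labelled and 31.2 (23.1 to 41.2) when WT-labelled, and smooth muscle-like cells 17.8 (14.6 to 21.5) when KO-labelled and 20.5 (15.5 to 26.5) when WT-labelled. T cell-like cells had 25.8 (17.8 to 36.3) when KO-labelled and 17.1 (8.18 to 31.4) when WT-labelled. Among these 4 types, intervals of neighbours in the order overlapped in both libraries. Endothelial-like cells had 0.837 CPM when KO-labelled and 1.27 when WT-labelled. FAP-like cells held 36.0% of Ptgir UMIs in the KO-labelled library and 42.3% in the WT-labelled library. The log2 ratio was 0.51 (0.24 to 0.84) in FAP-like cells, -0.73 (-1.26 to -0.25) in pericyte-like cells and -0.19 (-0.68 to 0.29) in smooth muscle-like cells. Over the 2 pericyte sub-clusters well represented in both libraries it was -0.30 (-0.96 to 0.33), an interval that includes 0.

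**Figure D4:**
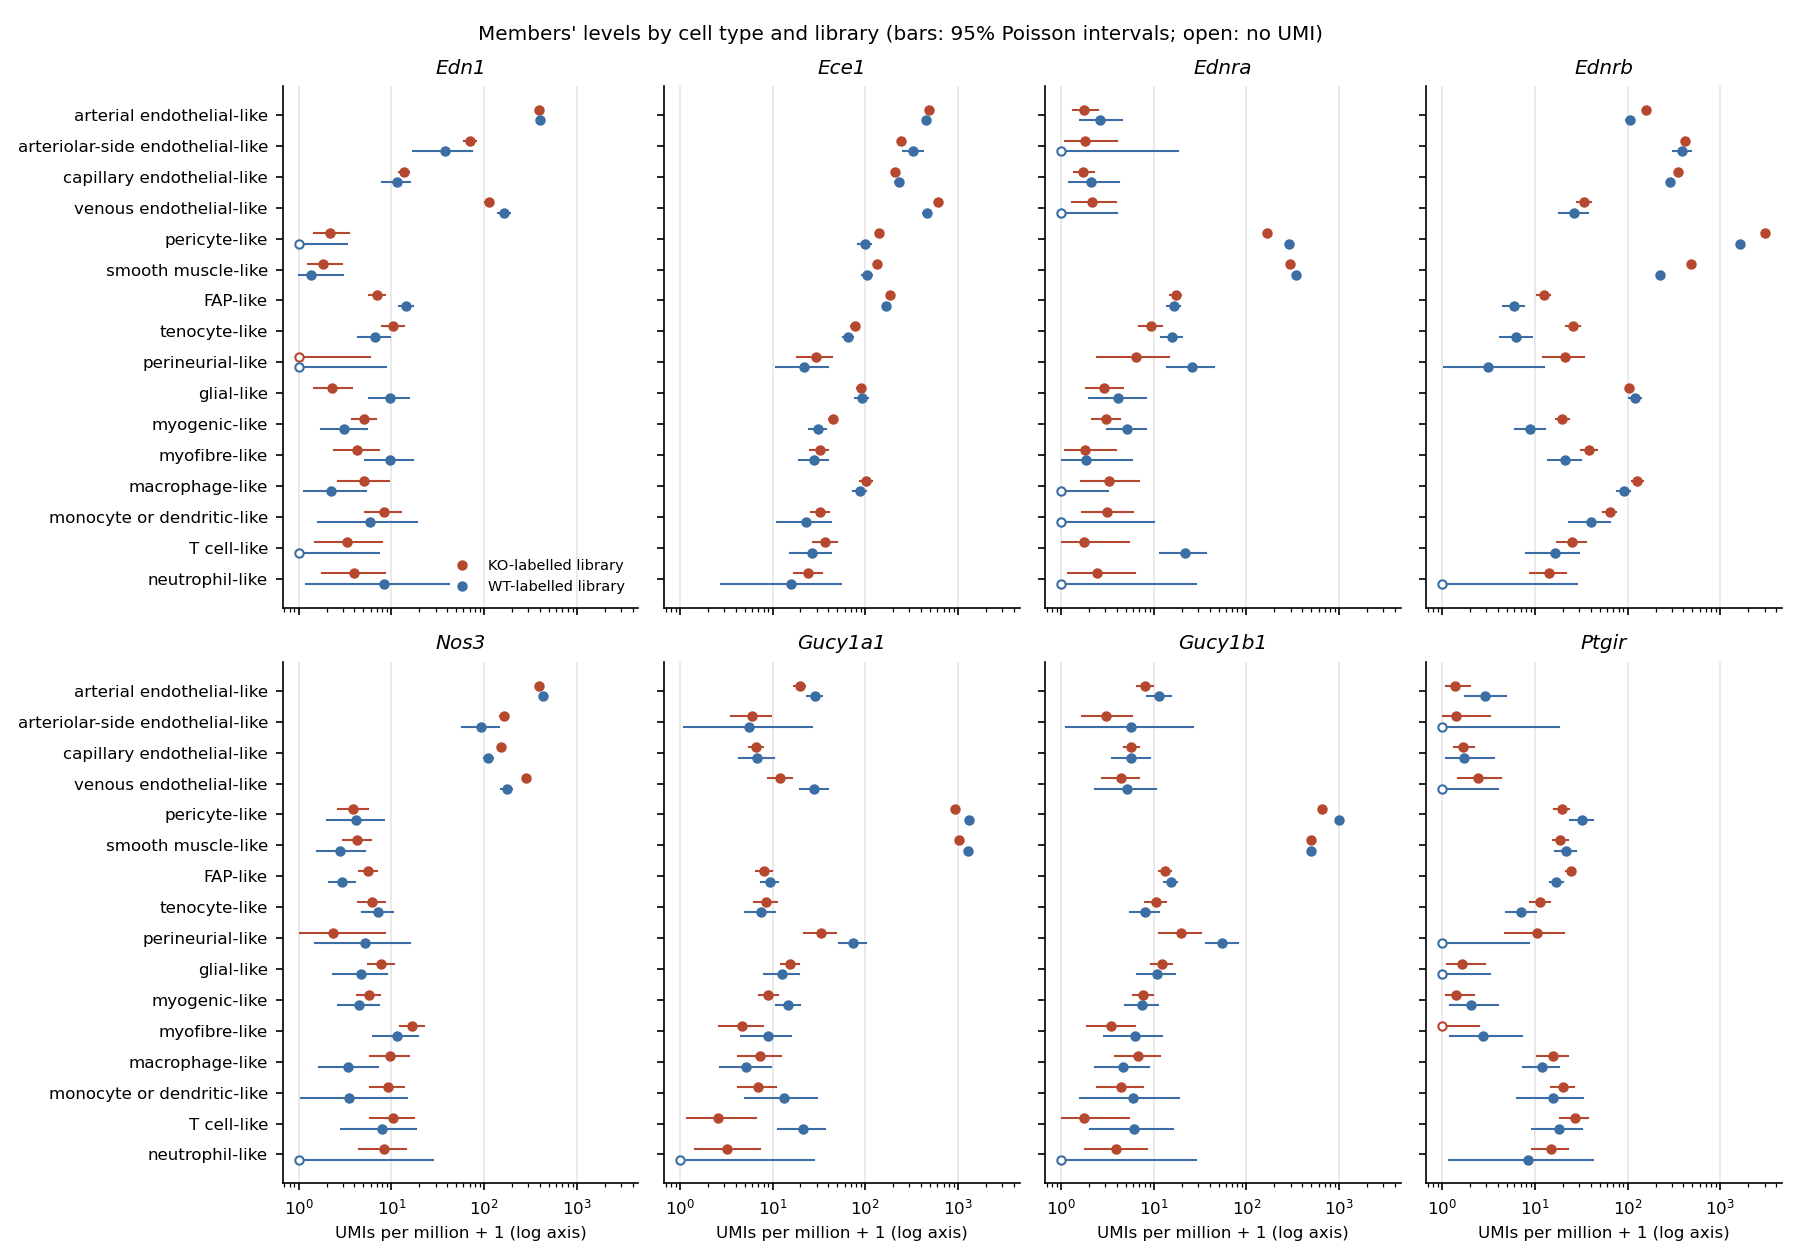
Level of each member (CPM plus 1, log axis) in 16 cell types of the KO-labelled and the WT-labelled library; bars are 95% Poisson intervals and open points mark a type without a UMI. Edn1 and Nos3 stand out in endothelial rows, Ednra, Gucy1a1 and Gucy1b1 in the pericyte and smooth muscle rows, and Ednrb in both sets.

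**Figure D5:**
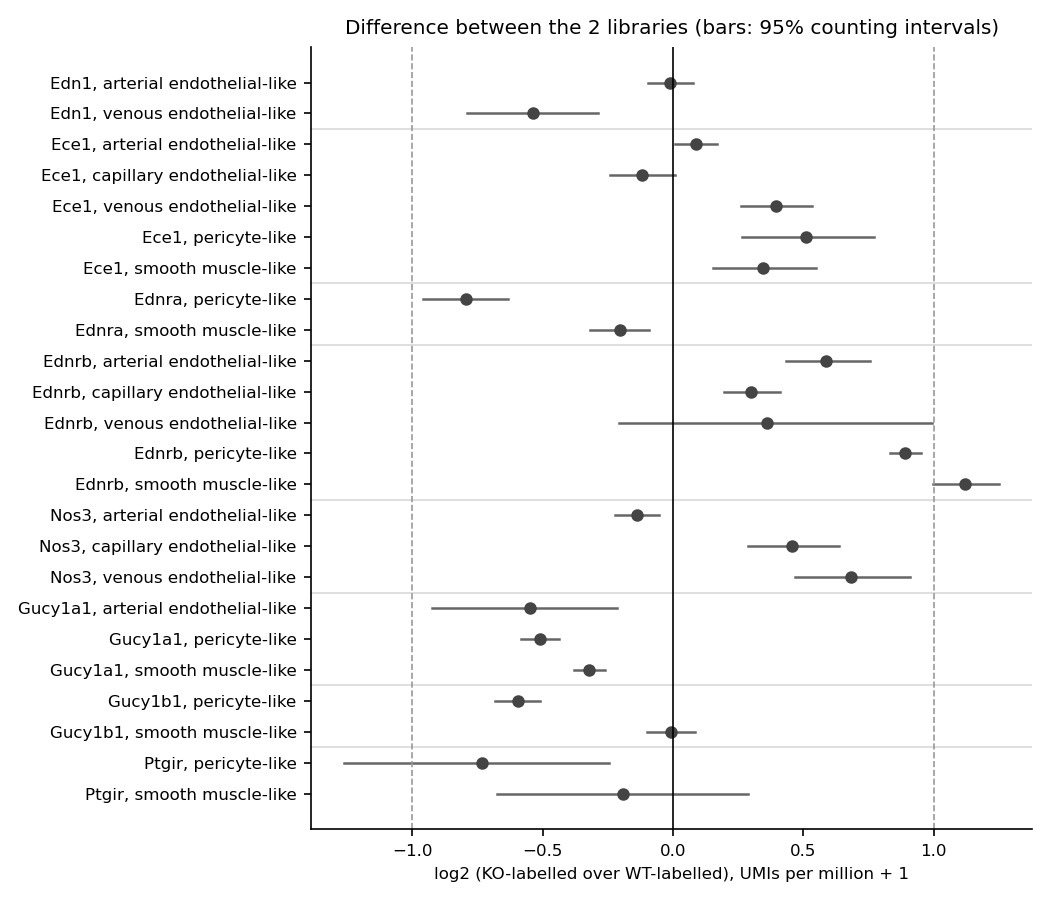
Log2 ratio of KO-labelled over WT-labelled levels for each member that passed the minimum level, in 3 endothelial segments and both mural types; bars are 95% counting intervals and dashed lines mark 2-fold. Ednrb lies to the right of 0 in all 5 types, though its interval includes 0 in venous cells, and it passes 2-fold in smooth muscle-like cells at 1.12. Pericyte ratios sum over all sub-clusters, including those that the WT-labelled library almost lacked.

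Other genes of these pathways were counted from lists of their ligands, enzymes, receptors and signal carriers. In pericyte-like cells no gene of the 5 lists was 2-fold apart. All 8 genes of nitric oxide synthesis and its regulators that passed the minimum, of 20 listed, were higher in the KO-labelled library (median log2 ratio 0.25, against -0.03 over all 7120 genes tested, of which 46.9% were higher), among them the transcription factors Klf4 (296 CPM KO-labelled, 168 WT-labelled, log2 ratio 0.81) and Klf2 (262 KO-labelled, 163 WT-labelled, 0.68). For Spr (0.02), Nosip (0.06), Nostrin (0.15) and Ddah2 (0.22) the interval included 0. It lay above 0 for Klf4, Klf2, the chaperone Hsp90aa1 (0.50) and Cav1 (0.28). The synthase genes Nos1, Nos2 and Nos3 did not pass the minimum, so this count holds no synthase. Of 10 genes of the cyclic GMP pathway that passed, 2 were higher and 8 lower (median -0.33). Pde3a, a phosphodiesterase that breaks down cyclic nucleotides, was at 1943 CPM when KO-labelled and 1207 when WT-labelled (0.69). The cyclic GMP dependent kinase Prkg2 was at 65.1 when KO-labelled and 130 when WT-labelled (-0.98), and Irag1, a substrate of the kinase encoded by Prkg1, at 266 when KO-labelled and 422 when WT-labelled (-0.66). Of 8 other receptors and ligands of vessel tone that passed, 1 was higher and 7 were lower (median -0.33), with the adrenergic receptors Adra1a (26.0 KO-labelled, 47.1 WT-labelled, -0.83) and Adra2b (18.5 KO-labelled, 33.7 WT-labelled, -0.83) and the vasopressin receptor Avpr1a (42.3 KO-labelled, 68.0 WT-labelled, -0.67). The prostaglandin E receptor Ptger4 was at 141 in the KO-labelled library and 77.6 in the WT-labelled library (0.86). These counts sum over pericyte sub-clusters that the WT-labelled library almost lacked. Over the 2 sub-clusters well represented in both libraries, 7 of the 8 nitric oxide synthesis genes were higher (median 0.28), with Klf4 at 0.32 and Klf2 at 0.48. Of all genes tested, 49.8% were higher there. There 3 of the 10 cyclic GMP genes were higher and 7 lower (median -0.05), with Prkg2 at -0.08 and Irag1 turned to 0.17. The other receptors and ligands divided there into 4 higher and 4 lower (median 0.02), with Adra1a at 0.08, Adra2b at -0.12 and Avpr1a at -0.97. The 2 prostanoid genes that passed, Ptger4 and Ptgir, divided there into 1 higher and 1 lower (median -0.03). Their median over all pericyte-like cells was 0.06. Of the dissociation genes, 15 of 18 were higher in all pericyte-like cells (median 0.39) and 10 of 18 in the shared sub-clusters (median 0.06). Their part in the ratios of these lists was not tested.

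In endothelial-like cells 2 genes of these lists were 2-fold lower in the KO-labelled library and none was 2-fold higher, where 1.41% of genes tested were lower and 0.227% higher by that measure. They were Prkg1, the main cyclic GMP dependent kinase of the vessel wall (64.9 CPM in the KO-labelled library and 140 in the WT-labelled library, log2 ratio -1.10), and Aplnr, the apelin receptor (8.42 KO-labelled, 24.2 WT-labelled, -1.42). Prkg1 gave -0.36 in arterial, -0.55 in capillary (under the minimum level) and -1.01 in venous cells, while the libraries differed in their arterial share. Of the 7 endothelin pathway genes that passed, Edn1 and Ece1 included, 5 were lower, against 48.0% of all 6619 genes tested, with Plcb1, the phospholipase downstream of endothelin receptors, at 485 when KO-labelled and 851 when WT-labelled (-0.81), and at -0.71 in arterial, -0.70 in capillary and -0.27 in venous cells. The inositol trisphosphate receptor Itpr1 was at 492 when KO-labelled and 628 when WT-labelled (-0.35), with -0.01 in arterial, -0.06 in capillary and -0.68 in venous cells, and the G protein subunits Gnaq at 299.9 KO-labelled and 362 WT-labelled (-0.27) and Gna11 at 111 KO-labelled and 88.4 WT-labelled (0.33). Nitric oxide synthesis genes divided into 8 higher and 6 lower, including the chaperone Hsp90aa1 at 1257 when KO-labelled and 831 when WT-labelled (0.60). Prostanoid genes that passed were 3, with the cyclooxygenase Ptgs1 at 37.7 KO-labelled and 52.6 WT-labelled (-0.47, with 0.06 in arterial cells, under the minimum level, -0.26 in capillary and -0.32 in venous cells) and the prostaglandin transporter Slco2a1 at 47.7 KO-labelled and 57.5 WT-labelled (-0.26, with 0.31 in venous cells). Here 18 of 19 dissociation genes were higher in the KO-labelled library (median 0.28), including Fosl1 (35.9 KO-labelled, 18.3 WT-labelled, 0.94), Dusp1 (839.5 KO-labelled, 512 WT-labelled, 0.71) and Hsph1 (202 KO-labelled, 126 WT-labelled, 0.68).

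In smooth muscle-like cells Ednrb was the sole list gene 2-fold apart, where 1.28% of genes tested were. Among all 6812 genes tested there, 51.7% were higher in the KO-labelled library and 48.3% lower (median log2 ratio 0.01). Of the nitric oxide synthesis genes that passed, 6 of 7 were higher (median 0.28), including the arginine transporter Slc7a1 (35.1 CPM KO-labelled, 22.2 WT-labelled, 0.63). Ddah2 was lower (-0.52, -0.84 to -0.22). The synthase genes Nos1, Nos2 and Nos3 did not pass the minimum. The cyclic GMP genes divided into 4 higher and 6 lower (median -0.12), and other vessel tone receptors and ligands into 1 higher and 7 lower (median -0.28). The prostacyclin synthase Ptgis was at 36.7 CPM when KO-labelled and 35.2 when WT-labelled (0.06). Of 18 dissociation genes, 14 were higher (median 0.15).

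Likeness between genes was described over 45 profiles, each a cell type in 1 library, as the Pearson correlation of log2 levels among 11487 genes; profiles of a library share its depth and free RNA. Gucy1a1 and Gucy1b1 were the most alike of the members (r = 0.97), Gucy1b1 and Ednra gave 0.93, Edn1 and Nos3 gave 0.87, and Ednra and Ednrb gave 0.44. The genes most like Edn1 were Mmrn2 (0.87), Erg (0.85), an endothelial transcription factor, and Ptprr (0.85). Nos3 was most like Ptprb (0.97), a phosphatase of endothelial cells, Cyyr1 (0.96) and Mmrn2 (0.96). Ednrb was most like Nes (0.92), an intermediate filament gene, Rgs5 (0.87), a pericyte marker, and Inka2 (0.85). Ednra was most like Il34 (0.93), Ano1 (0.93), a chloride channel of smooth muscle, and the neuropeptide Y receptor Npy1r (0.92). Gucy1a1 was most like Myl9 (0.93), a myosin light chain, Ppp1r14a (0.92) and Prkg1 (0.92), and Gucy1b1 most like Myl9 (0.97), Npy1r (0.95) and Casq2 (0.95). Ece1 was most like Eng (0.91), Aplp2 (0.90) and Ccnyl1 (0.89), and Ptgir, with the fewest UMIs, like Morrbid (0.76), Adora2b (0.73) and Cnnm2 (0.73).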

How the data were processed

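Single-cell transcripts were counted in 2 libraries, 1 per genotype label. The deposited files hold raw UMI counts per gene and barcode, made by the authors with version 4 of the GEM-X 3′ chemistry of 10x Genomics, per the labels' protocols. Cell Ranger 9.0.0 and build mm10 are named per the submitters' processing notes, whereas the file headers give 9.0.0 for the KO-labelled library and 8.0.0 for the WT-labelled library; an effect of the version was not tested.

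Barcodes with under 500 genes, over 10% mitochondrial UMIs or a doublet call (Scrublet method) were removed. The caller marked 2.84% of the KO-labelled library, where 7.42% were expected, and 0.944% of the WT-labelled library, where 4.11% were expected, so doublets remain. The 2000 most variable genes per library, without members and pathway genes, gave 30 principal components, 20 neighbours and Leiden clusters at resolution 1, with no integration; endothelial and mural clusters were clustered again. Names ending in -like rest on mean marker scores of at least 1 (classes), 1.1 (segments) or 0.8 (mural cells), set after the scores were seen, and sub-clusters led by markers of another class were left out. A difference from other annotations may come from these rebuilt names.

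UMIs were summed per cell type and library and scaled to CPM, with a pseudocount of 1 CPM in log2 ratios. Genes with 20 CPM in 1 library and 100 UMIs in all were compared, in types of at least 100 cells per library. The 95% intervals are exact Poisson (levels), Clopper-Pearson (shares) and conditional binomial without a pseudocount (ratios), and cover counting error only; a count of 0 allows up to 3 counts. The ratio computation was tested on simulated data. Cells under 2000 UMIs were left out of thinned shares, for example 110 of 1120 KO-labelled and 235 of 612 WT-labelled pericyte-like cells. The members and lists were chosen with earlier results of these data known. Named genes were the 8 members, up to 4 genes of each list with ratios furthest from 0 in each vessel cell type, and the 3 genes most like each member. Mrvi1 of the cyclic GMP list was not used here. Software was Python 3.11.15, numpy 2.4.6, scipy 1.17.1, scanpy 1.11.5, leidenalg 0.10.2, scikit-learn 1.9.0 and, for TMM factors, edgeR 4.0.16 in R 4.3.3.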

Additional observations from a re-analysis of the deposited data

How the results depend on the processing

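No paired analysis was possible because each genotype label has 1 library, and for the same reason no replicate could be left out. Log2 ratios below are KO-labelled over WT-labelled. With each pericyte-like or endothelial-like sub-cluster of at least 30 cells per library given equal weight, Ednrb in pericyte-like cells turned to -0.049 from 0.89, Edn1 in endothelial-like cells to 0.15 from -0.47 and Ece1 to 0.11 from -0.10. The same weighting gave -0.28 for Ednra, -0.11 for Gucy1a1 and -0.18 for Gucy1b1 in pericyte-like cells, and 0.39 for Ednrb and -0.023 for Nos3 in endothelial-like cells. Summing only those sub-clusters, an alternative chosen after seeing the data and also used for the pathway lists, gave -0.12 for Ednrb, -0.24 for Ednra, -0.087 for Gucy1a1 and -0.18 for Gucy1b1 in pericyte-like cells, and -0.32 for Edn1, 0.44 for Ednrb and -0.030 for Ece1 in endothelial-like cells. Both settings leave out the pericyte-like sub-clusters with fewer than 30 cells in the WT-labelled library. The alternatives for Ednrb in pericyte-like cells were likewise chosen after seeing the data.

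The other settings kept each direction of the 8 ratios above. TMM factors shifted pericyte ratios by 0.13 and median-ratio factors by 0.14: Ednrb became 1.02 and 1.03, Gucy1a1 -0.38 and -0.37, Gucy1b1 -0.47 and -0.46, with Ece1 in endothelial-like cells at -0.035 and -0.030 and Nos3 at -0.027 under median-ratio factors. Thinning to 2000 UMIs gave 0.81 for Ednrb and -0.40 for Gucy1a1 in pericyte-like cells, and -0.69 for Edn1, -0.29 for Ece1 and -0.24 for Nos3 in endothelial-like cells. Gating cells on marker UMIs gave 1.06, -0.38 and -0.43 for Ednrb, Gucy1a1 and Gucy1b1 in pericyte-like cells, and -0.56, 0.70 and -0.18 for Edn1, Ednrb and Nos3 in endothelial-like cells. Weighting every cell equally gave 0.99 for pericyte Ednrb and -0.16 for endothelial Ece1, the strict cell filter 0.81 for pericyte Ednrb, and adding mixed and unnamed sub-clusters -0.50 for pericyte Gucy1b1. Ptgir in smooth muscle-like cells ranged from -0.45 to 0.25, either side of 0, and stayed within its counting interval in 16 of 16 alternatives. Where no reason is given, the cause was not tested.

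Genes 2-fold apart numbered 108 in endothelial-like, 231 in pericyte-like and 87 in smooth muscle-like cells, against 294, 1636 and 819 without a minimum level and 28, 63 and 22 at 100 CPM or more. Of 260 alternative values of 40 levels, 200 lay within the counting interval and 6 moved by over 1.5-fold: venous Ednrb of the KO-labelled library (66.0, 63.4 and 68.4 against 33.1 CPM, with doublets kept, at resolution 2 and with pathway genes in the clustering), arterial Ednrb of the WT-labelled library (55.9 against 105, each library clustered alone), capillary Edn1 of the KO-labelled library (19.3 against 12.7, resolution 2) and smooth muscle Ptgir of the WT-labelled library (13.4 against 20.5, marker gate).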

Other observations

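Several values lie outside the named classes. A small unnamed endothelial sub-cluster led by Penk and Esm1, with 82 cells in the KO-labelled library and 85 in the WT-labelled library, had the highest Ednrb of any endothelial sub-cluster of at least 30 cells per library, at 789 CPM when KO-labelled and 534 when WT-labelled. Lymphatic endothelial-like cells numbered 23 in the KO-labelled library and 16 in the WT-labelled library; of 26 Edn1 UMIs in the KO-labelled ones all came from 1 cell. Interferon-responding endothelial-like cells (96 KO-labelled, 106 WT-labelled) had 344 CPM of Ednrb when KO-labelled and 264 when WT-labelled.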
